A study of Homo sapiens with 12 samples.

Results

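The genes TASOR, MPHOSPH8, PPHLN1, MORC2, SETDB1, ATF7IP, TRIM28, CBX1, CBX3 and CBX5, which encode 10 proteins of heterochromatin silencing, were examined for peaks of N4-acetylcytidine (ac4C), a cytidine that carries an acetyl group. The genes were chosen by name, with no cutoff on a measured value, and a peak was counted for a gene when it overlapped the RefSeq gene span (hg38) by at least 1 bp. All 10 were found in the annotation, among 20056 protein-coding genes. Of all annotated genes, 19128 had a peak in either list.

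The cells were RBE, a human intrahepatic cholangiocarcinoma line. They carried either a control hairpin (sh-NC) or a hairpin against NAT10 (sh-NAT10), the enzyme that acetylates cytidine in RNA. The hairpin was delivered by lentivirus at a multiplicity of infection of 20 with 10 μg/mL polybrene, and resistant colonies were selected with 2 μg/mL puromycin and expanded. The labels repeat this treatment for both arms and name only the sh-NAT10 virus in it. RNA fragments of 100 to 200 bp were pulled down with an antibody to ac4C, and these and the input RNA were sequenced in 3 replicates of each of 4 groups. The files analysed here hold 1 list of peaks per arm, so the spread between replicates cannot be seen, no test between arms was possible and no p-value is given.

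The products of these genes shut down transposable elements and other repeats by building heterochromatin marked by methylation of histone H3 at lysine 9 (H3K9). TRIM28 is the adaptor that zinc finger proteins of the KRAB class bring to DNA, and it recruits the methyltransferase SETDB1, which ATF7IP stabilises in the nucleus. The HUSH complex, made of TASOR, MPHOSPH8 and periphilin (PPHLN1), spreads the mark over young retroelements together with SETDB1 and the ATPase MORC2. The HP1 proteins, encoded by CBX1 (beta), CBX3 (gamma) and CBX5 (alpha), bind the methylated histone tail.

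The control list held 34365 peaks and the knockdown list 28047, or 81.6% as many. The depth behind the lists is unknown. Each peak carries the authors' score, of unstated scale. It was used to describe and rank peaks within a list, where the medians were 12.2 and 12.4 and few peaks lay under a lower edge at 10. Scores of both lists are also set side by side, or under a shared cutoff of 20, though the scale may differ between them. The targeted gene, NAT10, had 5 peaks in each list, which does not check the knockdown, since a peak is not a level of RNA or protein. Among biliary genes, KRT7 had 11 control and 10 knockdown peaks, KRT8 9 and 10, KRT18 3 and 3, KRT19 5 and 4 and SOX9 5 and 6, while EPCAM had 0 in both.

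The 10 genes carried 36 control peaks and 26 knockdown peaks, or 72.2% as many, beside 81.6% for the lists as a whole. With the control list shortened by score to the length of the knockdown list, the totals were 28 and 26. A control peak was found on 8 of the genes. TASOR was the single gene of these 8 without a knockdown peak (12.5%), beside 26.3% of all 9449 protein-coding genes that had one in the control list. None of the 7 genes with a knockdown peak (0 of 7) lacked a control peak, beside 17.4% of 8429. MPHOSPH8 and CBX3 had no peak in either list, as did 45.6% of all protein-coding genes.

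Fewer knockdown than control peaks were found on TASOR, PPHLN1, ATF7IP and CBX5, 4 of the 8 genes with a peak (50%, against 46.1% of 10915 protein-coding genes). More were found on MORC2 and TRIM28, 2 of 8 (25%, against 33.3%), and SETDB1 and CBX1 had equal numbers. The median difference, knockdown minus control, was -1 peak over the 8 genes and 0 over the 10915. The 10915 include 1466 genes without a control peak, which cannot have fewer, while all 8 genes had one. For the 8 genes 46.1% is therefore a low background and 33.3% a high one. With that limit, these shares lie near those of all protein-coding genes. TRIM28 and ATF7IP together held 19 of the 36 control peaks and 18 of the 26 knockdown peaks, and the remaining genes had 17 control and 8 knockdown peaks (47.1%).

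**Figure D1:**
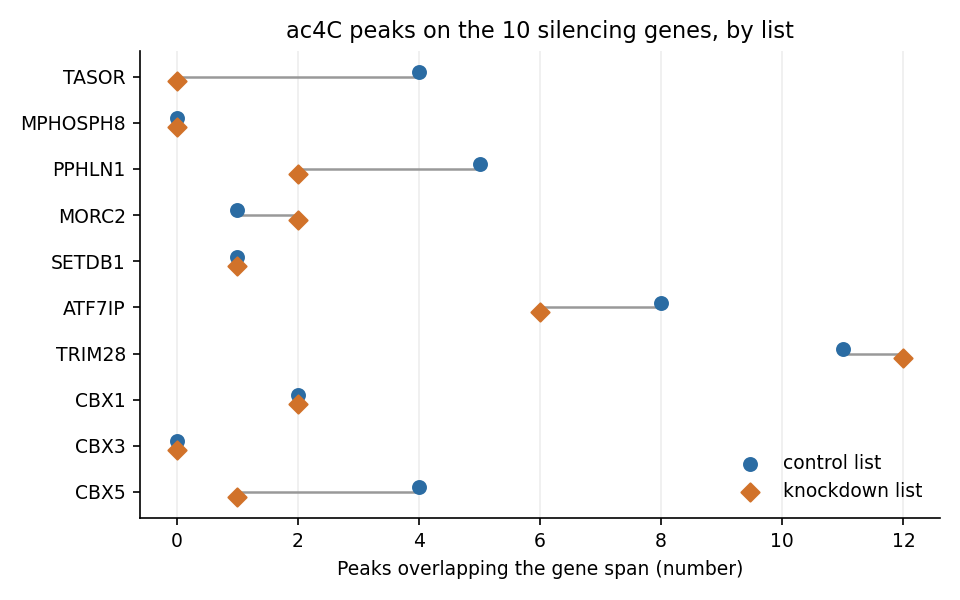
Number of peaks overlapping the span of each of the 10 genes (horizontal axis, number of peaks), with a circle for the control list and a diamond for the knockdown list, 1 list per arm and therefore no error bar. TRIM28 leads both lists with 11 and 12 peaks, TASOR goes from 4 to 0, and MPHOSPH8 and CBX3 stand at 0 in both.

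**Figure D2:**
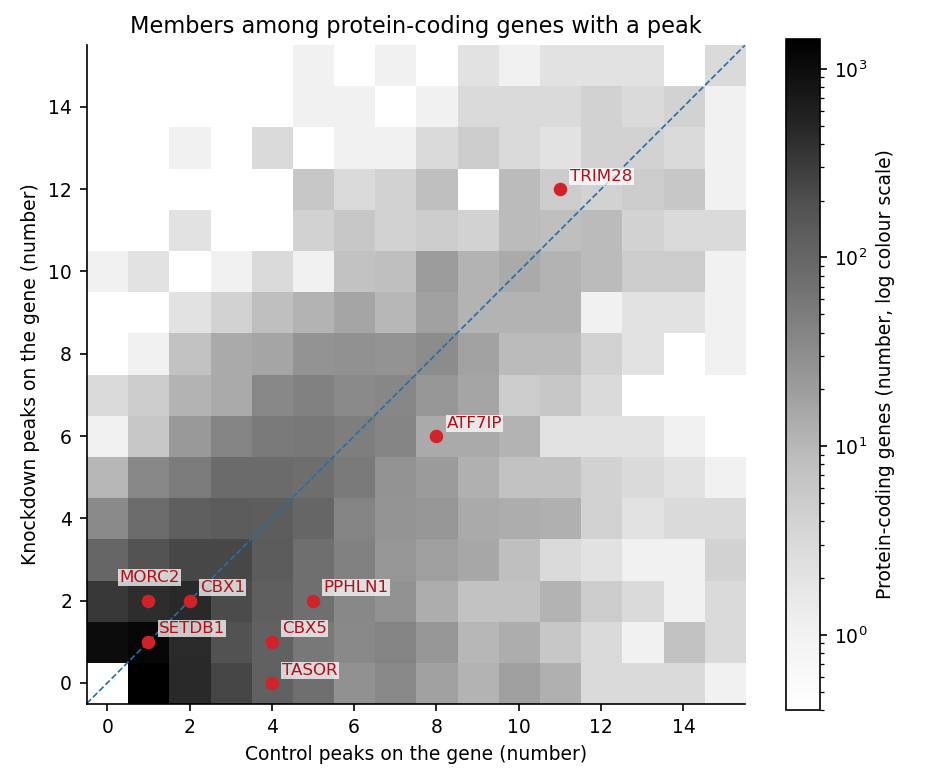
Control peaks (horizontal axis) against knockdown peaks (vertical axis) per protein-coding gene, with the number of genes in each cell as grey on a log colour scale and the 8 genes with peaks as red points. The dashed line marks equal numbers, and 159 genes with 16 or more peaks in a list lie outside the plot.

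TRIM28 was the most densely covered of the genes. It lies on chromosome 19 from 58544064 to 58550715, the shortest span of the 10 at 6652 bp, and all its peaks were on the plus strand. It had 11 control and 12 knockdown peaks, or 16.5 and 18.0 peaks per 10 kb of span, where no other of the genes exceeded 0.813 (CBX5) among control peaks or 0.637 (CBX1) among knockdown peaks. Spans include introns, and exons were not analysed here. Protein-coding genes with 11 control peaks numbered 113, and their median was 7 knockdown peaks (interquartile range 2 to 10), so TRIM28 with 12 lay above that range. The direction of its difference of 1 peak turned to -2 when peaks within 100 bp of each other were merged.

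The single highest score on TRIM28 in both lists belonged to a 25 bp peak from 58550285 to 58550309, which begins at the first base of MIR6807, a microRNA hairpin annotated inside the TRIM28 span. Among control peaks it scored 44.1, and 97.6% of that list scored no higher. Among knockdown peaks it scored 90.1, and 99.0% of that list scored no higher. The hairpin is shown because this peak covers its start exactly. In the first line the 25 bases under the peak are in capitals, and in the second, the mature 5p arm, the capitals mark the seed (bases 2 to 8). Both are from RefSeq (GRCh38.p14), chr19:58550285-58550376 and chr19:58550285-58550306, plus strand, written 5′ to 3′.
MIR6807 hairpin: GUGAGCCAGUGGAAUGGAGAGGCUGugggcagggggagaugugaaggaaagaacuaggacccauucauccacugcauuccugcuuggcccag
hsa-miR-6807-5p: gUGAGCCAguggaauggagagg

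A wider peak of low score, from 58549946 in each list, covers the whole hairpin with both arms. Under the 25 bp peak alone lie all 22 bases of the 5p arm and 0 of the 23 bases of the 3p arm. Cytidine, the base that can be acetylated, makes up 3 of the 25 bases under the peak (12%) and 19 of the 92 bases of the hairpin (20.7%), where the median over 1562 RefSeq hairpins was 23.8% (interquartile range 19.1 to 29.1). A peak beginning at the first base of a hairpin and ending inside it was rare among all 1562 hairpins. Most of these had no peak at all, as 142 overlapped one of the control list and 122 one of the knockdown list. Among hairpins with a peak lying inside them, 14 in control and 16 in knockdown, such a start was not rare. The 6 hairpins with such a start were the same in both lists, MIR6807, MIR6892, MIR1244-2 and 3 copies of MIR1184. MIR6807 begins with GU and ends with AG, the letters at the ends of most spliced introns, as do 36 of all hairpins (2.30%) and 2 of those 6.

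The running numbers in the files set this peak apart from the other peaks of TRIM28. Peaks of a gene follow each other in number along its strand, and 10 control and 11 knockdown peaks of TRIM28 form such an unbroken run. The MIR6807 peak has a number far from that run in both lists, 33675 against 11743 to 11752 and 27569 against 10172 to 10182. It is therefore uncertain whether it belongs to TRIM28. Without it TRIM28 had 10 and 11 peaks, and its highest scores were 41.9 (control) and 25.8 (knockdown).

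Most TRIM28 peaks overlapped a peak of the other list. Among the 11 control peaks, 9 lay over a plus strand knockdown peak (81.8%, 95% Wilson interval 52.3 to 94.9), beside 45.3% of control peaks on protein-coding genes. In the other direction 10 of the 12 knockdown peaks lay over a control peak, beside 54.9%. These counts include the MIR6807 peak, and the interval treats neighbouring peaks as independent, which they are not. Besides the MIR6807 peak, 4 had the same start and end in both lists, a 1739 bp span from 58545408 to 58547146, a 197 bp peak from 58547372, a 75 bp peak from 58548856 and a 150 bp peak from 58549721. The union of control peaks covered 3276 bp of the 6652 bp span and that of knockdown peaks 3124 bp, with 2924 bp in both. An overlap of 1 bp is easier to reach on a span so densely covered, and the background shares were not matched for this.

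The deposited scores of recurring peaks went both ways, though their scale may differ between the lists. The 75 bp peak from 58548856 scored 41.9 in control and 12.8 in knockdown. The 150 bp peak from 58549721 had 17.8 and 25.8, and the 197 bp peak from 58547372 had 14.4 and 17.7. A low score of 0.997 and 1.17 was listed for a wider peak from 58549946 that contains the whole MIR6807 hairpin. The control peaks without a counterpart were 277 bp from 58547892 (score 15.8) and 50 bp from 58549621 (15.3). Those of the knockdown list were 25 bp each, from 58548756 (14.7) and from 58548981 (10.1).

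**Figure D3:**
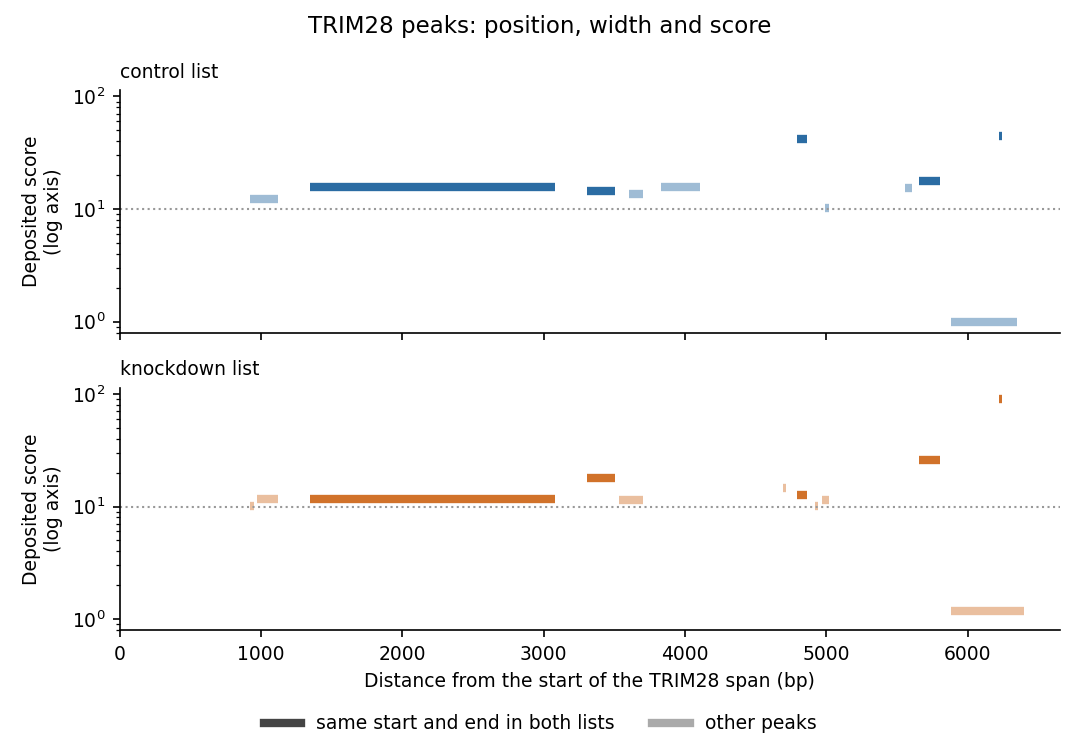
Peaks of TRIM28 in the control list (upper panel) and the knockdown list (lower panel), each bar running from the first to the last base of a peak along the distance from the start of the span (bp) at the height of its deposited score (log axis, scale unknown, dotted line at 10). Dark bars have the same start and end in both lists, and the highest, at 44.1 and 90.1, is the peak at the start of MIR6807.

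With 1 SETDB1 peak in each list, it cannot be told whether SETDB1 and its partner ATF7IP differed in how far their peaks recurred. SETDB1, the H3K9 methyltransferase (chromosome 1, 150926263 to 150964737, plus strand), had 1 peak in each list, and the peaks did not overlap. The Wilson interval for 0 of 1 ran from 0 to 79.3%, which overlaps that of ATF7IP given below. Of control peaks on protein-coding genes 45.3% overlapped a knockdown peak, so a peak without a counterpart was common. The control peak was 75 bp wide from 150950833, at 64.0% of the span, with a score of 12.2. The knockdown peak spanned 1404 bp from 150939948, at 37.4% of the span, with a score of 14.7. The equal count thus hides different positions.

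ATF7IP (chromosome 12, 14365682 to 14502930, plus strand) had 8 control and 6 knockdown peaks. Of the 8 control peaks 7 coincided at least in part with one of knockdown (87.5%, 95% Wilson interval 52.9 to 97.8), beside 45.3% on protein-coding genes. So did all 6 in the other direction, beside 54.9%. The interval again treats neighbouring peaks as independent. The peaks lay in the downstream part of the gene, with middles from 59.6% to 96.5% of the span for control peaks and from 56.1% to 95.7% for knockdown peaks. Protein-coding genes with 8 control peaks numbered 244 and had a median of 6 knockdown peaks (interquartile range 3 to 8), which is the number on ATF7IP.

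Near the end of ATF7IP the control list held 3 peaks and the knockdown list 1. The control peaks were 1435 bp from 14496231 (score 32.6), 200 bp from 14497691 (11.9) and 150 bp from 14498091 (25.2). The knockdown peak ran 1585 bp from the same start, 14496231, with a score of 11.6, and overlapped the first 2 of them. The peak at 14498091 was the one ATF7IP control peak without a counterpart. Further upstream, a 50 bp peak from 14481154 had the same coordinates in both lists, with scores of 15.1 and 12.8. A wide control peak of 18302 bp from 14438267 had the same start as a knockdown peak of 8745 bp, with scores of 10.7 and 11.0. Peaks are written as single blocks, so such widths may include introns.

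The 4 HUSH and MORC2 genes together had 10 control and 4 knockdown peaks, and 2 of those 10 had a knockdown counterpart, both on PPHLN1, where 45.3% of control peaks on protein-coding genes overlapped one. TASOR, the scaffold of HUSH (chromosome 3, 56620132 to 56683265, minus strand), had 4 control peaks and 0 knockdown peaks. A peak of 50 bp lay near the start of the gene, from 56682738 (0.796% of the span, score 10.6). A 25 bp peak from 56633135 (79.4%, score 11.6), a 75 bp peak from 56623757 (94.2%, score 13.9) and, beyond it, a 250 bp peak from 56623157 (score 11.8) lay towards its end. All 4 were on the gene's strand, carried consecutive numbers and overlapped no other gene.

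These TASOR scores were modest, with 68.4% of the control list at or below the highest of them and 15.9% at or below the lowest. Of the 816 protein-coding genes with exactly 4 control peaks, 14.2% had 0 knockdown peaks, with a median of 3 (interquartile range 1 to 4.25). The nearest knockdown peak outside the TASOR span was 437046 bp away, on IL17RD, and the nearest control peak 56361 bp away, on CCDC66. CCDC66, which overlaps the end of TASOR on the other strand, had 1 control peak and 0 knockdown peaks. The RNA level of TASOR was not measured in these lists, so fewer acetylated molecules, less TASOR RNA and fewer reads cannot be told apart.

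PPHLN1 (chromosome 12, 42326167 to 42448621, plus strand) had 5 control and 2 knockdown peaks. On its own strand the numbers were 3 and 2. Both minus strand control peaks, 25 bp from 42431665 (score 10.4) and 125 bp from 42432171 (10.9), lie within the pseudogene LOC100132797 and stand outside the run of PPHLN1 numbers. A 50 bp control peak from 42335889 (score 12.7) had no counterpart.

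The other PPHLN1 peaks recurred. A control span of 5339 bp from 42393630 overlapped a knockdown span of 5314 bp from 42393680, with scores of 1.49 and 1.51, and both include the small RNA pseudogene RNU6-249P. A span of 10679 bp from 42448607 to 42459285 had the same coordinates in both lists, with scores of 21.8 and 14.9. It begins just inside the end of PPHLN1 and runs 10664 bp past it, into the span of PRICKLE1. At the other end of the gene, an 87508 bp span on the plus strand, with scores of 0.964 and 0.475, ended at 42326154, within the 300 bp promoter window of PPHLN1 (42325917 to 42326216). That was the single peak over the 20 promoter windows that RefSeq gives for 9 of the genes, all but TRIM28, and it was in both lists.

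MORC2, an ATPase of chromatin compaction (chromosome 22, 30925130 to 30968774, minus strand), had 1 control and 2 knockdown peaks, none of them shared on the same strand. The control peak, 3247 bp from 30926639 with a score of 16.5, was on the plus strand and reached the antisense gene MORC2-AS1, whose span ends at 30926654. One knockdown peak, 4305 bp from 30928105 with a score of 12.3, was on the strand of MORC2 and covered 1781 bp of the same positions as the control peak. The other, 50 bp from 30932351 with a score of 13.8, was on the plus strand. On its own strand MORC2 thus had 0 control peaks and 1 knockdown peak. How strand was treated before deposit is unknown here, so reads of MORC2 and of its antisense partner may not have been separated.

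MPHOSPH8, the chromodomain subunit of HUSH (chromosome 13, 19633659 to 19673441), had no peak in either list. The nearest peaks lay 63584 bp away (control) and 56901 bp away (knockdown), both on PSPC1, the gene that overlaps its end, and over the pseudogene RN7SL166P inside it.

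The HP1 genes had 6 control and 3 knockdown peaks, and CBX5 accounted for the whole difference. CBX5 (chromosome 12, 54230942 to 54280122, minus strand) had 4 control peaks and 1 knockdown peak. The control peaks were 25 bp from 54231767 (98.3% of the span, score 10.4), 50 bp from 54232892 (96.0%, 15.9), 125 bp from 54237167 (87.2%, 11.3) and 50 bp from 54255802 (49.4%, 10.9). The knockdown peak, 75 bp from 54237217 with a score of 12.7, lay inside the third of them and ended at the same base. The fourth overlaps the pseudogene RN7SL390P and stands outside the run of CBX5 numbers, so its assignment is uncertain and CBX5 had 3 control peaks without it. The 1 knockdown peak of CBX5 lay at the lower quartile of the genes with 4 control peaks given above.

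CBX1 (chromosome 17, 48070059 to 48101478, minus strand) had 2 peaks in both lists, of which 1 recurred. That peak lay near the end of the gene, at 97.4% of the span, and was 175 bp wide among control peaks (score 21.2) and 225 bp wide among knockdown peaks (score 11.7). The remaining control peak, 197 bp from 48100569 (score 10.0), lay near the start of the gene at 2.58% of the span. The remaining knockdown peak, 25 bp from 48076972 (score 10.2), lay at 78.0%. Both had scores close to the lower edge at 10.

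CBX3 (chromosome 7, 26201443 to 26213607) had no peak, while the nearest one, 3702 bp away on the neighbouring gene HNRNPA2B1, stood at the same place in both lists with scores of 72.4 and 74.4. Whether reads of the HP1 genes were split with their pseudogenes was not tested. The annotation names 10 pseudogenes of CBX3, 5 of CBX1 and 1 of CBX5, and 1 control peak, on CBX5P1, was found over all 16, with 0 in the knockdown list.

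**Figure D4:**
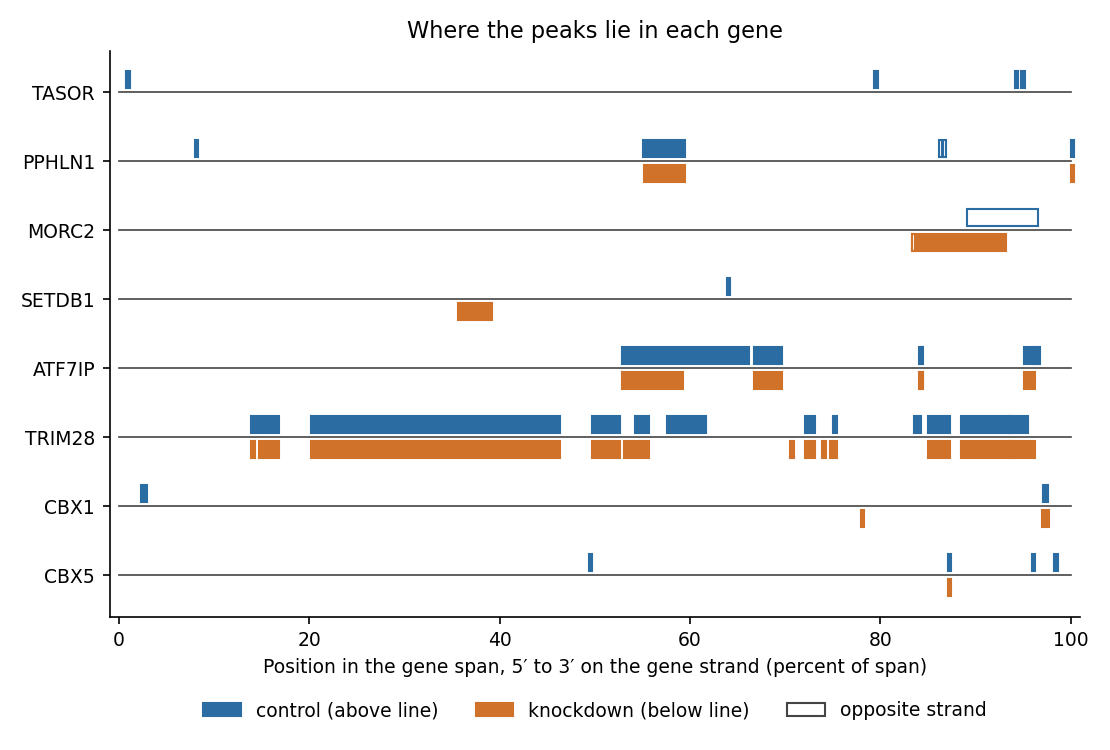
Peaks along the span of each gene that has one, from its start (0) to its end (100) on the gene's strand, in percent of the span, with control peaks above the line and knockdown peaks below it. Open boxes are on the opposite strand, the narrowest boxes are widened to stay visible, and the last PPHLN1 peak is cut at the end of the span. ATF7IP and TRIM28 repeat their pattern below the line, while TASOR has boxes above it alone.

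Across the 10 genes, 20 of the 36 control peaks had an overlapping knockdown peak of the same strand (55.6%, 95% Wilson interval 39.6 to 70.5), beside 45.3% of the 30411 control peaks on protein-coding genes. In the other direction it was 20 of 26 (76.9%, interval 57.9 to 89.0), beside 54.9% of 25027. The intervals cover counting error only and treat peaks of 1 gene as independent, which they are not. TRIM28 and ATF7IP supplied 16 of the 20 overlapping peaks in each list. Outside these 2 genes 4 of 17 control peaks (23.5%, interval 9.56 to 47.3) and 4 of 8 knockdown peaks (50%, interval 21.5 to 78.5) overlapped.

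Some edges were shared to the base. The overlaps formed 23 pairs of a control and a knockdown peak, of which 18 had the same start or the same end and 7 had both. A peak enters once for each peak it overlaps. The same shares over all overlapping pairs of the lists were not computed, so these cannot be read as particular to the 10 genes. Widths of 23 of the 36 control peaks and 14 of the 26 knockdown peaks were whole multiples of 25 bp, as were 58.2% and 54.5% of all peaks in the lists. The median width over these genes was 137.5 bp for control and 147 bp for knockdown peaks, near the medians of 175 and 168 bp over all peaks.

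High scores were few on these genes in either list. A score of 20 or more was carried by 6 of the 36 control peaks (16.7%, against 11.7% of control peaks on protein-coding genes) and by 2 of the 26 knockdown peaks (7.69%, against 14.7%). The 6 control peaks lay on ATF7IP and TRIM28, with 2 each, and on PPHLN1 and CBX1. Of these 6, the MIR6807 peak was the single one that overlapped a knockdown peak of 20 or more. The other 5 did not, a condition also met by 66.1% of the 3547 such control peaks on protein-coding genes. Both knockdown peaks of 20 or more were on TRIM28, and 1 of them lacked an overlapping control peak of 20 or more, as did 67.5% of 3690. The scale of the score may differ between the lists. These counts are small, and in both lists they include the MIR6807 peak, whose assignment to TRIM28 is uncertain. The PPHLN1 peak lies almost wholly past the end of that gene (10664 of its 10679 bp).

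Most narrow peaks lay in the downstream part of their gene. Of 27 narrow control peaks (up to 1000 bp, inside the span and on its strand) 9 lay in the last 10% of the span, where 31.7% of such peaks on protein-coding genes lay. Of 17 narrow knockdown peaks 3 lay there, beside 23.8%. The first 10% held 3 control peaks and 0 knockdown peaks, beside 6.88% and 8.79%. The last 50% of the span held 22 of the 27 control peaks (81.5%, beside 72.3%) and 15 of the 17 knockdown peaks (88.2%, beside 67.9%), of which many came from TRIM28 and ATF7IP. On the strand of the gene lay 22 of 25 control and 13 of 14 knockdown peaks when TRIM28 was left out, whose strand was taken from its own peaks, beside 90.5% and 90.7% over protein-coding genes.

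Other genes of H3K9 silencing were counted in the same way, 31 in all. Knockdown peaks were missing from 3 of the 24 genes present in the control list, LRIF1 with 1 control peak, DAXX with 1 and KDM3A with 5. Conversely, 2 of the 23 genes present in the knockdown list were without a control peak, SMARCAD1 with 1 and LBR, an HP1-binding protein of the inner nuclear membrane, with 4. These are 12.5% and 8.70%, beside the 26.3% and 17.4% of protein-coding genes given above. Fewer knockdown peaks were found on 14 of the 26 genes with a peak (53.8%, beside 46.1%), more on 9 (34.6%, beside 33.3%) and equal numbers on 3, with 126 control and 90 knockdown peaks in all and a median difference of -1. As 24 of these 26 had a control peak, 46.1% is somewhat low and 33.3% somewhat high as a background here too.

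In the group of H3K9 methyltransferases and their partner WIZ, 4 of 5 genes had a peak and all 4 had fewer in the knockdown list. They were EHMT1 with 14 and 11, EHMT2 with 6 and 4, WIZ with 5 and 3 and SUV39H1 with 2 and 1, named after their values were seen. Of all protein-coding genes with a peak 46.1% had fewer, but that share counts 1466 genes without a control peak, which cannot have fewer. It is therefore a low background for these 4 genes, which all had control peaks. Among the H3K9 demethylases 1 gene had fewer, 2 more and 1 an equal number, with 16 peaks in each list. Of the paralogs and partners of HUSH and SETDB1, 2 had fewer, 2 more and 2 an equal number, with 25 and 18 peaks. Of the HP1 partners and readers 6 had fewer and 4 more, with 43 and 25 peaks, and of the relatives of TRIM28 1 had fewer and 1 more, with 15 and 12. The largest differences downwards were on ATRX, a chromatin remodeller, with 15 control peaks and 1 knockdown peak, on ZNF638, a partner of HUSH, with 13 and 4, and on KDM3A and TRIM33, with 5 fewer each. The largest upwards, after LBR, were on the demethylase gene KDM4B with 1 and 4, and on TASOR2, TRIM24 and KDM4C with 2 more each. TASOR2, the paralog of TASOR, had 3 control and 5 knockdown peaks, where TASOR had 4 and 0. The paralogs SETDB2 and ATF7IP2 had no peak in either list.

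**Figure D5:**
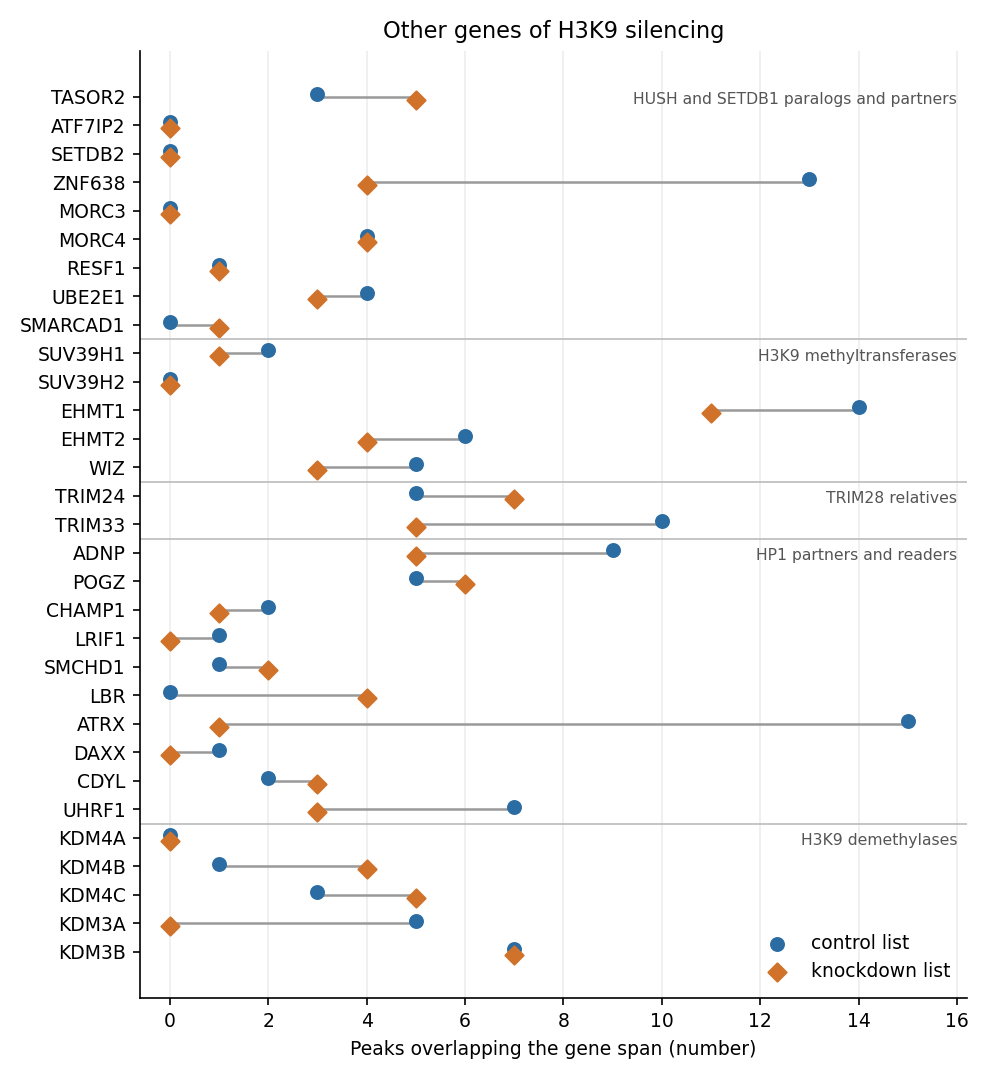
Number of peaks (horizontal axis) on 31 other genes of H3K9 silencing in 5 groups, with a circle for the control list and a diamond for the knockdown list. ATRX and ZNF638 show the longest lines to the left, from 15 to 1 and from 13 to 4, and LBR the longest to the right, from 0 to 4.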

How the data were processed

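The files rest on 12 libraries in 4 groups of 3 replicates, immunoprecipitate and input in each arm. The tools were fastp 0.20.1 and Bowtie2 2.4.1 and the build hg38, per the submitters' processing notes. The caller, any threshold, how inputs entered and whether replicates were pooled are unknown here. The authors deposited 1 interval list per arm with a score per peak, whose scale is unstated, and its width. The control list was matched by its name and the other list was taken as the knockdown list. Running numbers reach 34407 and 28092, above the 34365 and 28047 peaks analysed here.

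Overlaps were computed in Python 3.11.15 with pandas 2.3.3 and NumPy 2.4.6, intervals with SciPy 1.17.1 and figures with matplotlib 3.10.9. The overlap code was tested on shifted copies of the control peaks, against a direct count on sampled peaks and genes, and by removing the peaks of randomly drawn genes. Gene spans, promoter windows and hairpins came from RefSeq (GRCh38.p14), and gene strand from the promoter table. Exons and the sequence under other peaks were not analysed here. A run is the longest stretch of consecutive peak numbers on the gene's strand. All 10 genes were named. Of the 31 others, those with peaks in 1 list only and the 3 largest differences each way (ties included) were named, and further ones after their values were seen. The genes, lists and tests were chosen with earlier results of these data known. Alternatives covered overlap, strand, score, width, list length, merging and span. Runs and the omission of TRIM28 and ATF7IP were added after seeing the data.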

Additional observations from a re-analysis of the deposited data

How the results depend on the processing

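No paired analysis was possible because the lists do not separate replicates. The number of genes with fewer knockdown peaks stayed between 3 and 5 over all alternatives. Genes with peaks in 1 list only, 1 as reported, were 2 on the gene's strand or in its run of numbers, 3 at scores of 20 or more or without peaks shared with another gene, and 4 with peaks up to 1000 bp. Genes with more knockdown peaks, 2 as reported, were 3 with the control list shortened by score to the length of the knockdown list. They were 0 at scores of 20 or more and 1 after merging peaks within 100 bp or without TRIM28 and ATF7IP. At scores of 20 or more 6 control and 2 knockdown peaks were left, and 16.7% of the former overlapped. Without TRIM28 and ATF7IP there were 17 and 8, and 23.5% overlapped. Requiring the same start and end gave 19.4%. The difference on TRIM28 (1) reversed to -2 after merging and was 3 with the control list shortened by score. TASOR kept 4 fewer knockdown peaks except at 20 or more (0 in both lists) and with the shortened control list (-3). Depth is unknown, so an absent peak does not show an absent mark.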
